A study of Mus musculus with 8 samples.

Results

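The collagen chain genes of mouse were described in 8 bulk RNA sequencing libraries of the BALB/c breast cancer lines 4T1 and TS/A. A gene was taken as a member when its name had the form of a collagen alpha chain (Col, a type number, the letter a and a chain number), which gave 44 of 22026 gene names. Reads were summed over the 115 collagen transcripts to 1 total per gene. Of the 44 genes, 37 had at least 1 read in some library, and 19 passed the filter on low counts that left 11970 genes for testing. By class the members were 11 fibrillar, 6 type IV, 9 FACIT (fibril-associated collagens with interrupted triple helices), 4 transmembrane, 6 beaded-filament, 3 short-chain network, 2 multiplexin, 1 anchoring-fibril and 2 other genes.

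The libraries fell into 4 groups of 2: 4T1 with the empty vector, 4T1 with the Gpr56/Adgrg1 vector, TS/A with the empty vector and TS/A with the Gpr56/Adgrg1 vector. Cells of all groups were grown in RPMI medium with fetal calf serum, and the series' design text has total RNA taken at 72 h from cells kept with type III collagen. The sample characteristics name the vector as the difference between groups, whereas the titles name the 2 arms of each line Emp_Control and Emp_ColIII. The groups below follow the characteristics, and whether the arms differed in vector, in collagen or in both cannot be told apart from the labels. Whether the 2 libraries of a group were cultured separately is not stated, so the p-values speak for the spread among these 8 libraries, which may be technical.

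Collagens are extracellular matrix proteins whose alpha chains wind into triple helices of 3 chains. Fibrillar collagens (types I, II, III, V, XI, XXIV and XXVII) assemble into cross-striated fibrils, and type I is normally a heterotrimer of the Col1a1 and Col1a2 chains. Type IV collagen forms the sheet-like network of basement membranes, most widely from Col4a1 and Col4a2 chains. FACITs coat fibrils, transmembrane collagens span the plasma membrane of the cell that makes them, multiplexins are proteoglycan-like collagens of basement membrane zones, and type VII forms the anchoring fibrils under epithelia. Type III collagen is a ligand of Gpr56, an adhesion G protein-coupled receptor encoded by Adgrg1.

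The upstream sequences of 4 members are shown because the results turn on unequal reads of partner chains: Col4a5 and Col4a6 start head to head 1308 bases apart on chromosome X yet gave 7028 and 12 reads over the 8 libraries, Col1a2 gave 29 reads where its partner Col1a1 gave 18607, and Col8a1 was among the 3 highest collagens in every group. They are RefSeq promoter windows of build GRCm38.p6, cut to the longest stretch outside annotated exons. The Col1a2 stretch lies within the annotated transcript ENSMUST00000141483, which starts at 4504814 and had no read. The stretches are at chrX:141475169-141475384 on the plus strand for Col4a5 and chrX:141474077-141474326 on the minus strand for Col4a6. For Col1a2 and Col8a1 they are at chr6:4505370-4505492 on the plus strand and chr16:57754738-57754987 on the minus strand. Each is written 5′ to 3′ along its gene's strand, and capitals mark matches to the CCAAT box (CCAAT or ATTGG) and the GC box (GGGCGG or CCGCCC).
Col4a5: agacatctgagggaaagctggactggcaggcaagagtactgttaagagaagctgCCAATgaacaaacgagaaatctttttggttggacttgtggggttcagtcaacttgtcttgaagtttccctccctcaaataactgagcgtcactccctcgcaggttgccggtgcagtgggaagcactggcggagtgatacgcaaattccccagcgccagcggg
Col4a6: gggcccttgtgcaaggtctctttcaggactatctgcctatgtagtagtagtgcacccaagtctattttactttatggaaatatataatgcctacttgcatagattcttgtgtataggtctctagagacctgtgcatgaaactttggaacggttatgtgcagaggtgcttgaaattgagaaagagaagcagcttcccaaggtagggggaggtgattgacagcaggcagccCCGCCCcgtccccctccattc
Col1a2: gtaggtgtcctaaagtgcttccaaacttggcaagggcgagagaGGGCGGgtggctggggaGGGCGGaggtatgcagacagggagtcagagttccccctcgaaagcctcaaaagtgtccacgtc
Col8a1: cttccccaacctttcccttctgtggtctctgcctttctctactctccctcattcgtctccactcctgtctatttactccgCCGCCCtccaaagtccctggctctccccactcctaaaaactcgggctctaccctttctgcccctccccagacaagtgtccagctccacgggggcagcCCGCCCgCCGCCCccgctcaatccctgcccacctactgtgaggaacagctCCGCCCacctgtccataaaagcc
Over whole windows of the 250 bases before the start, 35 members had an entry, and matches on either strand were counted. The 35 members had 38 windows. A GC box was found in 21 members, in 57.9% of member windows and in 32.7% of all 32851 windows. A CCAAT box was found in 13 members, in 34.2% of member windows and in 33.8% of all windows. A TATA box (TATAAA or TTTATA) was found in 5 members, in 13.2% of member windows and in 12.4% of all windows. No TATA box was found in the windows of Col4a5, Col4a6, Col1a2 or Col8a1. In the parts of the windows cut from the stretches above, Col1a2 also had a CCAAT box and Col4a5 a GC box. These matches are descriptions of the letters in the windows.

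The libraries held 10510569 to 25959142 reads, so that 3 reads, the upper limit that a count of 0 allows, were worth 0.116 to 0.285 CPM (reads scaled to library size). Adgrg1, the gene on the vector, stood at 2.53 and 2.77 CPM in 4T1 empty and at 90.5 and 100 CPM in 4T1 Gpr56. In TS/A it stood at 34.8 and 16.3 CPM with the empty vector and at 22.6 and 13.3 CPM in the libraries labelled Gpr56, so Adgrg1 did not follow the vector label there and the label is used only as a name. The 2 TS/A empty libraries stood apart from each other: chi-square per degree of freedom between replicates was 123, against 3.64 in 4T1 empty, 5.54 in 4T1 Gpr56 and 18 in the TS/A libraries labelled Gpr56. Marker genes of endothelium and immune cells were near 0 throughout apart from Cd68. The mammary epithelial markers Epcam, Cdh1 and Krt8 were abundant in 4T1 but below 1 CPM in every TS/A library, so the epithelial label of TS/A rested on Krt18 (148 to 204 CPM) and Krt19 (30.6 to 55.7 CPM).

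Both lines transcribed a small part of the collagen family. Type IV chains led in 4T1, and TS/A held a mixture of multiplexin, short-chain, type IV and fibrillar chains. By deposited RPKM summed over a gene's transcripts, a per-length scale on which genes can be compared, Col4a1 and Col4a2 ranked first and second in 4T1 empty, at 88.5 ± 1.60 and 57.4 ± 2.03 RPKM (mean ± SD, n = 2), followed by Col8a1 at 37.0 ± 0.658 and Col18a1 at 28.7 ± 1.71. In TS/A empty the order was Col8a1 (62.8 ± 12.7 RPKM), Col18a1 (62.3 ± 22.6), Col1a1 (36.7 ± 22.1) and Col4a1 (24.4 ± 10.2). The first 2 could not be ordered, since Col18a1 was the higher in empty library 1 (78.3 against 71.8 RPKM) and Col8a1 in empty library 2 (53.9 against 46.4). Col1a1 was above Col4a1 within each of the 4 TS/A libraries, at 52.4 against 31.6, 21.1 against 17.3, 32.4 against 20.9 and 22.8 against 18.5 RPKM. The summed RPKM of all collagen genes was 256 and 246 in 4T1 empty, 239 and 224 in 4T1 Gpr56, 333 and 185 in TS/A empty, and 253 and 219 in the TS/A libraries labelled Gpr56.

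Of that sum, type IV chains took 58.9% to 62.4% in the 4 4T1 libraries and 16.8% to 18.6% in the 4 TS/A libraries. Fibrillar chains took 3.26% to 3.53% in 4T1 and 14.5% to 21% in TS/A. Multiplexins took 8.38% to 11.8% and 23.5% to 27.1%, and the short-chain class took 14.7% to 16.6% and 21.6% to 29.1%. The beaded-filament class took 0.331% to 1.31% and 2.98% to 5.64%. For each of these classes the ranges of the lines did not overlap. FACITs took 5.63% to 6.42% over all 8 libraries, the anchoring fibril chain at most 4.67% and the transmembrane class at most 0.0985%, with the lines overlapping.

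**Figure D1:**
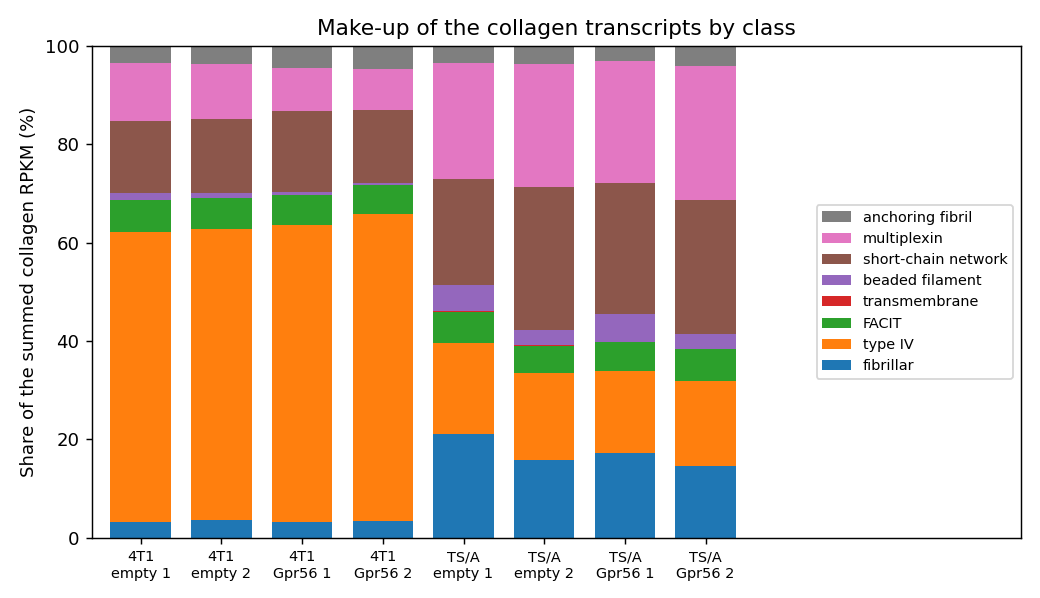
Share of the summed collagen RPKM (percent, vertical axis) taken by each class in each of the 8 libraries (horizontal axis). Type IV takes 58.9% to 62.4% of the sum in the 4T1 bars and 16.8% to 18.6% in the TS/A bars.

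Among the fibrillar chains, Col1a1 (chromosome 11, 94936224 to 94953042, plus strand, GRCm38, GENCODE release M21), the larger part of type I collagen, had 311 and 138 CPM in TS/A empty and 199 and 144 CPM in the libraries labelled Gpr56. In both 4T1 empty libraries it had 1.74 CPM, and in 4T1 Gpr56 it had 0.468 and 1.03 CPM. All TS/A libraries lay far above all 4T1 libraries. CPM here and below are scaled by TMM factors, which correct library totals for composition.

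Col5a1, the chain found in all common type V trimers, which regulate fibril diameter, was the other abundant fibrillar chain. It had 66.5, 69.6, 56.4 and 54.6 CPM in the 4 4T1 libraries (empty 1 and 2, then Gpr56 1 and 2) and 135, 67.5, 83.0 and 69.7 CPM in the TS/A libraries in the same order. The lines overlapped, since TS/A empty 2 lay below 4T1 empty 2. Col5a3, a less common type V chain, was at 3.01 to 5.26 CPM in TS/A and at 0 to 0.281 CPM in 4T1. Col27a1 had 24, 27, 15 and 6 reads in 4T1 and 3, 0, 0 and 0 in TS/A. Col2a1, the cartilage collagen, had 5 to 13 reads in the 4T1 libraries and at most 1 in a TS/A library, and Col11a2 had 3 to 41 reads in every library. Col3a1, the chain of the type III collagen that the design text names, had 1 read in all, in the TS/A library labelled Gpr56 2.

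The type IV chains Col4a1 (chromosome 8, 11198423 to 11312826, minus strand) and Col4a2 (chromosome 8, 11312805 to 11449287, plus strand) lie head to head, with 22 overlapping bases that reads without strand cannot assign. Col4a1 had 621 and 578 CPM in 4T1 empty, 570 and 523 in 4T1 Gpr56, 206 and 113 in TS/A empty and 140 and 129 in the TS/A libraries labelled Gpr56. Col4a2 had 406, 389, 416 and 376 CPM in 4T1 and 102, 54.4, 68.6 and 69.3 CPM in TS/A. Every 4T1 library was above every TS/A library for both chains. Col4a5 (chromosome X, 141475385 to 141689234, plus strand), a chain of specialised basement membranes whose loss causes Alport syndrome, went the other way between the lines, with 13.7, 14.9, 2.25 and 2.81 CPM in 4T1 and 88.9, 53.5, 73.8 and 59.5 CPM in TS/A. It also separated the vector groups of 4T1.

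FACIT chains were represented by Col16a1 and Col12a1. Col16a1 had 73.8, 68.9, 68.4 and 60.2 CPM in 4T1 and 98.1, 53.0, 71.4 and 69.2 CPM in TS/A, with the lines overlapping. Col12a1 (chromosome 9, 79598991 to 79718831, minus strand), a fibril-associated collagen of dense connective tissue and tumour stroma, had 22.7, 25.6, 14.3 and 12.5 CPM in 4T1 and 3.73, 1.35, 2.28 and 1.48 CPM in TS/A. The 4 highest libraries for Col12a1 were those of 4T1, and within 4T1 both empty libraries exceeded both Gpr56 libraries. Of the transmembrane chains, Col17a1, the hemidesmosomal collagen of epithelial cells, had 7 to 28 reads in every library, and Col23a1 had 3 to 17 reads in the TS/A libraries and 0, 0, 0 and 2 in 4T1. Col13a1 had 4 reads and Col25a1 had 1.

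In the other classes, Col8a1 (chromosome 16, 57624258 to 57754737, minus strand), a network collagen of vessel walls and the corneal endothelium, had 205, 201, 214 and 177 CPM in 4T1 and 368, 304, 357 and 325 CPM in TS/A. Col18a1 (chromosome 10, 77052178 to 77166548, minus strand), the multiplexin whose C-terminal fragment is endostatin, had 151, 137, 105 and 97.3 CPM in 4T1 and 372, 247, 315 and 309 CPM in TS/A. For both, every TS/A library was above every 4T1 library. Col15a1, the other multiplexin, had 5 to 10 reads in the 4T1 libraries and at most 1 in a TS/A library. Col7a1, the anchoring fibril collagen, had 89.4, 89.9, 104 and 101 CPM in 4T1 and 108, 68.1, 73.8 and 88.3 CPM in TS/A. Col6a1 (chromosome 10, 76708792 to 76726168, minus strand), of the beaded-filament type VI microfibrils, had 13.8, 11.8, 4.59 and 3.0 CPM in 4T1 and 64.2, 24.5, 53.4 and 26.4 CPM in TS/A. Col6a2 had 0.0937 to 0.844 CPM in 4T1 and 1.85 to 7.91 CPM in TS/A.

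**Figure D2:**
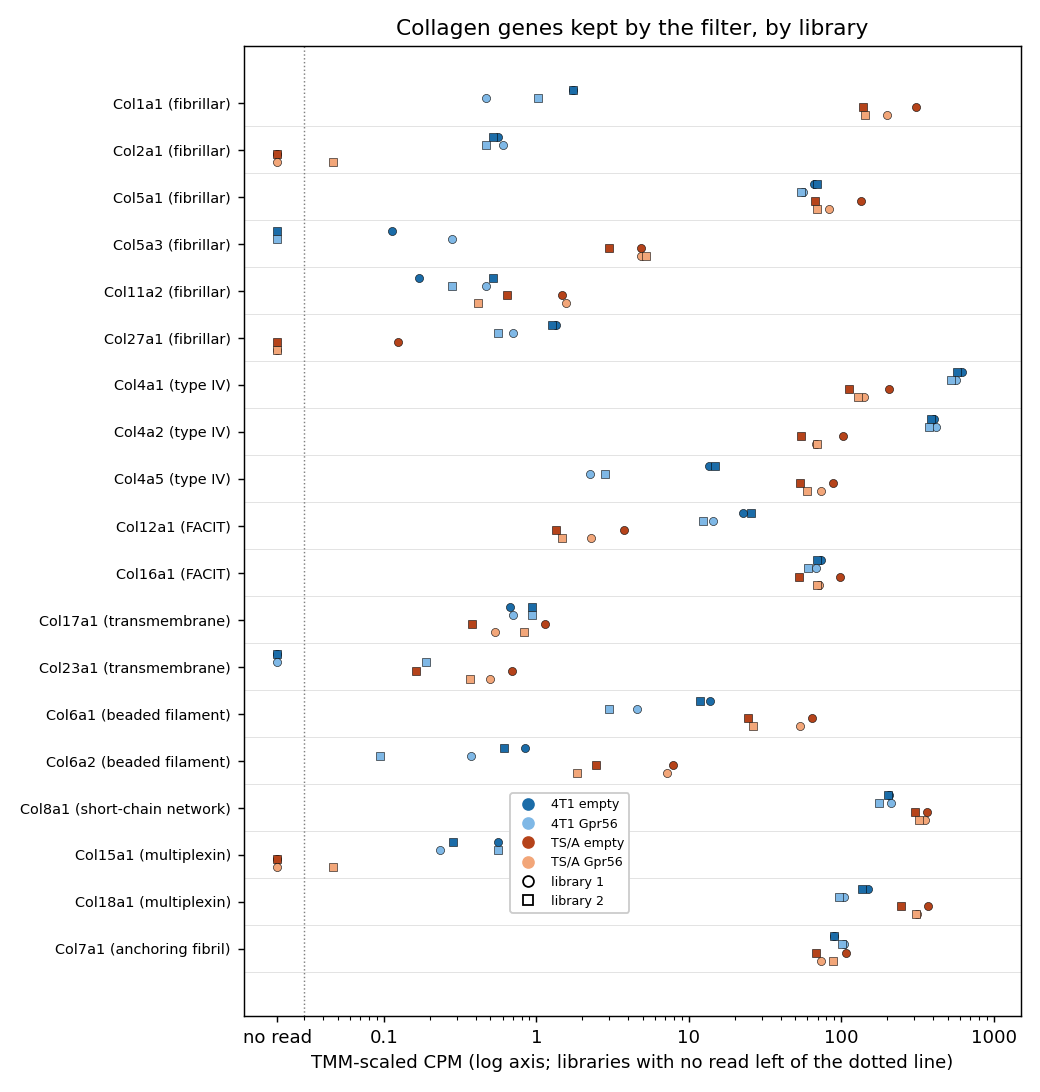
TMM-scaled CPM (log axis) of the 19 collagen genes that passed the filter, with 1 point per library, coloured by group and shaped by library number. Col4a1 and Col4a2 lie higher in 4T1, Col1a1 and Col4a5 lie higher in TS/A, and Col4a5 in 4T1 Gpr56 (2.25 and 2.81 CPM) lies below 4T1 empty (13.7 and 14.9 CPM).

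The other 25 genes did not pass the filter. No read was found for 7 of them: Col9a1, Col11a1, Col19a1, Col22a1, Col26a1, Col28a1 and Col6a6. The remaining 18 had at most 11 reads in a library and at most 29 over the 8 libraries. The most read were Col1a2 (29 reads), Col8a2 (28), Col4a4 (25) and Col9a3 (22). None was tested, and at these depths a level below the 3-read limit was not detectable.

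Several chains that can assemble together were present at very unequal levels. Col1a1 had 7591 and 2572 reads in TS/A empty and 5237 and 3118 in the libraries labelled Gpr56, against 6, 1, 6 and 1 reads of Col1a2 in the same libraries. Col5a1 had 12676 reads over all libraries against 4 of Col5a2, its usual partner. Col6a1 had 4624 reads, Col6a2 506 and Col6a3 2, although the 3 chains form the classical type VI trimer. Col8a1 had 45417 reads against 28 of Col8a2. Reads of 1 chain were the most in each of these sets, and in all but the type VI set they made up nearly the whole.

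Col4a1 and Col4a2 were both abundant, and their ratio separated the lines. By RPKM, Col4a1 exceeded Col4a2 by 1.52, 1.56, 1.35 and 1.5 times in the 4T1 libraries and by 2.0, 2.26, 2.04 and 1.83 times in the TS/A libraries. All 4 TS/A ratios were above all 4 4T1 ratios. No test was made of this ratio. Col4a5 was a minor type IV transcript in 4T1, at 0.00431 to 0.0259 of the RPKM of Col4a1, and a larger one in TS/A, at 0.451 to 0.547. Col4a6, the neighbour of Col4a5 whose upstream sequence is shown above, had 4, 5, 0 and 3 reads in 4T1 and none in TS/A, where Col4a5 had 993 to 2168 reads.

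The deposited split of Col4a1 reads between transcripts moved with the arms. The transcript ENSMUST00000209735, annotated as a target of nonsense-mediated decay, took 44.9% and 38.1% of Col4a1 reads in 4T1 empty and 19.9% and 22.3% in 4T1 Gpr56. In TS/A it took 3.10% and 2.73% with the empty vector and 41.2% and 42.5% in the libraries labelled Gpr56. The 2 lines thus moved in opposite directions, and the libraries of an arm lay closer to each other than to the other arm. Nearly all other Col4a1 reads were on the full-length protein-coding transcript ENSMUST00000033898. How the authors' counting divides reads between these 2 transcripts of similar length is not given in the sources used here, and the split was not tested. Col18a1 reads were almost wholly (99.0%) on ENSMUST00000081654, its most upstream start.

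The comparison of vectors in 4T1 asked whether collagen genes differed between the groups as labelled by vector. Col4a5 fell 5.78-fold, Col4a1 and Col4a2 did not pass the test, and no collagen gene rose when all 8 libraries shared 1 estimate of the spread. Col4a5 had 243 and 318 reads in 4T1 empty against 48 and 30 in 4T1 Gpr56, and the 2 groups did not overlap. Its log2 fold change was -2.53 (SE 0.30), with an adjusted p of 0.030 from edgeR's quasi-likelihood test with Benjamini-Hochberg adjustment over all genes. It was the 1 member called of 19, where 0.226% of all genes were called and 0.10% were called lower. Of 3 Col4a5 transcripts with reads, the larger 2, ENSMUST00000112931 and ENSMUST00000112930, went from 106 and 151 reads to 22 and 0, and from 126 and 149 to 22 and 28. In the fit of both lines the Col4a5 call ended when any 1 of the 4 4T1 libraries or either TS/A library labelled Gpr56 was left out. Almost no gene of any kind was called in those fits, and the log2 fold change of Col4a5 stayed between -2.67 and -2.35. Without either TS/A empty library, 4 of 20 members were called lower (Col4a5, Col6a1, Col12a1 and Col18a1), where 5.01% of all genes were called lower without library 1 and 4.96% without library 2. Counting the most read transcript of each gene alone, the log2 fold change of Col4a5 was -3.33 and missed the threshold (edgeR adjusted p = 0.193).

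When 4T1 was fitted alone, where the biological coefficient of variation was 5.47% against 14.7% over all libraries, 6 of 16 members passed, and 22.8% of all genes did. The 5 that fell were Col4a5, Col6a1, Col12a1, Col18a1 and Col5a1, where 11.3% of all genes were called lower. Col4a5 fell by 2.54 on the log2 scale there (SE 0.19, edgeR adjusted p = 3.49e-07). Col6a1 fell by 1.69 on the log2 scale (SE 0.20, edgeR adjusted p = 2.52e-05), from 245 and 252 reads to 98 and 32. Col12a1 fell 1.78-fold (edgeR adjusted p = 0.000207), Col18a1 1.42-fold (7.32e-05) and Col5a1 1.23-fold (0.00485). Col7a1 was the member that rose, by 1.14-fold (edgeR adjusted p = 0.0299).

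Col4a5, Col6a1, Col12a1 and Col18a1 remained called in each of the 4 single-line fits that left out 1 4T1 library. Col5a1 was lost without 4T1 empty 2, and Col7a1 was lost in 3 of those fits, namely without either empty library or without Gpr56 library 1. With all 8 libraries these 5 had the same directions with adjusted p from 0.262 (Col6a1) to 0.810 (Col7a1). Col1a1, with 31 and 37 reads in 4T1 empty and 10 and 11 in 4T1 Gpr56, missed the threshold in 4T1 alone (log2 fold change -1.35, SE 0.47, edgeR adjusted p = 0.0506). Col4a2 had a log2 fold change of 0.00 (SE 0.06 in 4T1 alone), and that of Col4a1 was -0.13 (SE 0.06, edgeR adjusted p = 0.115).

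Across the 19 members the groups of 4T1 did not overlap for 11, of which 10 were lower in 4T1 Gpr56 and 1 was higher, where 59.9% of all genes did not overlap, 30.4% lower and 29.5% higher. The median log2 fold change was -0.15 over members and 0 over all genes tested. Beside these differences the summed mammary epithelial markers stood at 2217 and 2201 CPM in 4T1 empty and 3088 and 2981 CPM in 4T1 Gpr56, with 8 of 10 higher and 1 lower in 4T1 alone. The fibroblast and other mesenchymal markers stood at 541 and 512 against 512 and 517 CPM, mostly Fbln2, with Pdgfra lower in 4T1 alone (13.3 and 13.3 against 7.96 and 8.25 CPM) and Lum, Thy1, Fap and Dcn at 0 reads in all 4 libraries. Cd68 stood at 6.64 and 6.58 against 13.4 and 17.3 CPM and was called higher in 4T1 alone, with the leukocyte marker Ptprc below 0.2 CPM. The part of these in the collagen differences was not tested, and in bulk RNA fewer cells of a type and less RNA per cell cannot be told apart.

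**Figure D3:**
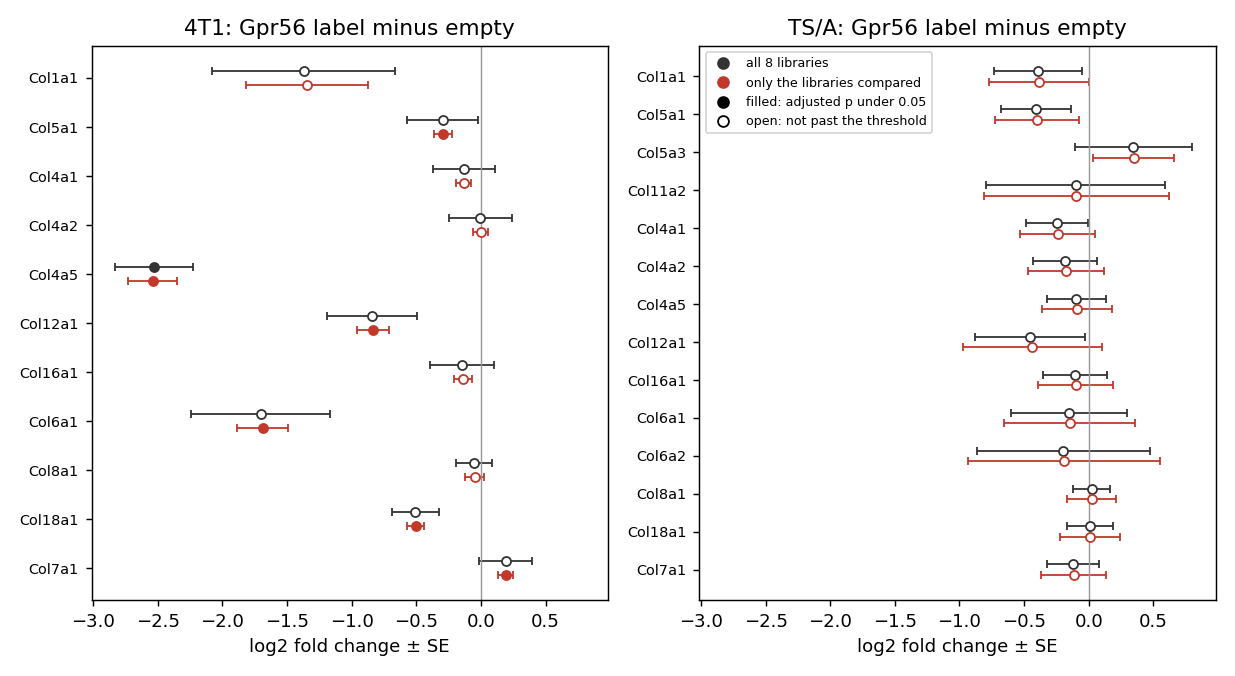
Log2 fold change ± SE of the library labelled Gpr56 minus the empty vector in 4T1 (left) and TS/A (right) for collagen genes with a mean of at least 1 CPM in that line, from the fit of all 8 libraries and from that of the line alone. Filled points passed an adjusted p of 0.05: Col4a5 at -2.53 and -2.54 in the 4T1 fits, 5 more genes in 4T1 alone, and none in TS/A.

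In TS/A no collagen gene separated the libraries labelled Gpr56 from the empty ones. Of 19 members 0 were called by edgeR with all 8 libraries, 0 had an unadjusted p under 0.05, and 0 were called by DESeq2, where edgeR called 0.00835% of all genes. The groups overlapped for all 19 members, where 21.6% of all genes did not overlap, 11.2% higher and 10.4% lower. Col4a5, lower in 4T1 Gpr56 than in 4T1 empty, had 2168 and 993 reads in TS/A empty and 1938 and 1290 in the libraries labelled Gpr56. Its log2 fold change in TS/A was -0.10 (SE 0.23). The 2 most abundant TS/A collagens were near 0 in log2 fold change, Col8a1 at 0.02 (SE 0.14) and Col18a1 at 0.01 (SE 0.18).

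The empty libraries of TS/A differed from each other for most members. Empty library 1 was the highest of the 4 for 15 of 19 members (38.9% of all genes), empty library 2 was the lowest for 14 (33.3%), and both libraries labelled Gpr56 lay between them for 14 (43.7%). Col1a1 in empty 1 was 311 CPM against 138 CPM in empty 2, Col6a1 was 64.2 against 24.5 CPM and Col4a1 206 against 113 CPM. Col8a1 differed least among the abundant members, at 368 against 304 CPM. The 2 libraries labelled Gpr56 also differed for some members, by 3.92 times for Col6a2, 3.76 for Col11a2 and 2.02 for Col6a1, against 3.19, 2.28 and 2.62 times between the empty libraries. Without TS/A empty library 2, 8 of 20 members were called lower in the libraries labelled Gpr56 (Col1a1, Col4a1, Col4a2, Col4a5, Col5a1, Col7a1, Col12a1 and Col16a1), where 12.7% of all genes were called lower in that fit. Without TS/A empty library 1 none was, where 1.4% of all genes were.

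The ratio of TS/A empty library 1 to library 2 rose with transcript length over all genes. Its median log2 value was -0.60 for 726 genes under 1 kb, -0.02 for those of 2 to 3 kb, 0.45 for those of 5 to 7 kb and 0.63 for 660 genes of 7 kb or more. In 4T1 empty the same medians ran from -0.05 to 0.04. The 13 collagen genes with a mean of at least 1 CPM over all libraries have transcripts of 4.06 to 11.4 kb, and their median was 0.89. Of these 13, 12 were above the median of the genes of their own length and 10 were above the upper quartile, with Col8a1 the 1 below the median. The part of transcript length in the collagen values of TS/A was not tested.

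**Figure D4:**
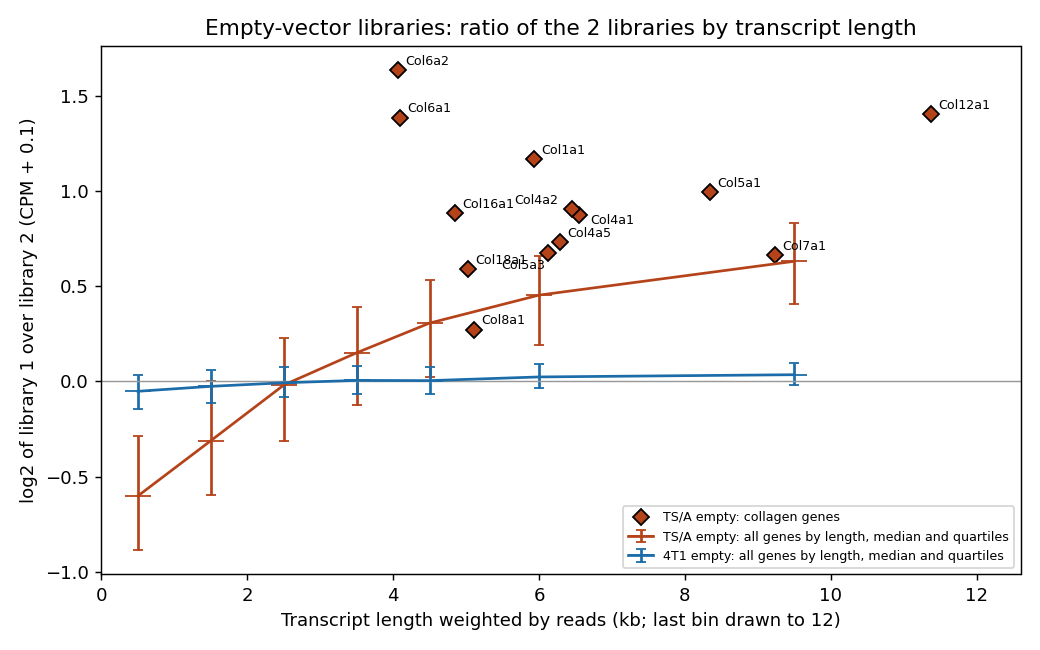
Log2 ratio of library 1 to library 2 (CPM plus 0.1, vertical axis) against transcript length in kb (horizontal axis) for the empty-vector libraries: lines join medians of all genes by length with quartile bars, and diamonds are collagen genes in TS/A. The TS/A line climbs from -0.60 to 0.63, the 4T1 line stays between -0.05 and 0.04, and 12 of the 13 diamonds lie above the TS/A median of their length.

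The contrasts between the vector labels, called vector effects here, were compared between the lines through their difference. Col4a5 had the lowest p, with a log2 difference of 2.44 (SE 0.38) in the direction of a smaller fall in TS/A, and it missed the threshold (edgeR adjusted p = 0.182). Of 19 members 0 were called, where 0.0668% of all genes were (0.0167% higher and 0.0501% lower), and 1 member had an unadjusted p under 0.05. The Col4a5 difference passed in DESeq2 (adjusted p = 2.03e-06), with no filter on low counts in edgeR (1.98e-05), and in edgeR without TS/A empty library 1 (0.000156) or library 2 (0.000499), at log2 differences of 2.43, 2.45, 2.87 and 2.14. Since Adgrg1 did not follow the vector label in TS/A, this difference sets the 4T1 vector effect against a contrast in which the vector gene did not rise.

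Between the lines with the empty vector, TS/A held more Col1a1, Col4a5, Col5a3, Col6a1, Col6a2, Col8a1, Col18a1 and Col23a1, and less Col4a1, Col4a2, Col12a1, Col27a1, Col2a1 and Col15a1. These were 14 of 19 members called, 8 higher and 6 lower, where 47.4% of all genes were called, 23.9% higher and 23.5% lower. A gene could pass the filter through the libraries of 1 line alone and then had to differ, so this count is no support for the family as a group. The groups did not overlap for 15 of 19, 9 higher and 6 lower, where 72.6% of all genes did not overlap, 35.9% higher and 36.6% lower. The comparison uses the same empty libraries as the vector comparisons. The median log2 fold change was 0.57 over members, also with the 3 genes that had a group at 0 set to the bounds below, and 0.01 over all genes.

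Col1a1 was 129-fold higher in TS/A (log2 fold change 7.01, SE 0.48, edgeR adjusted p = 1.56e-05). Without TS/A empty library 1 its log2 fold change was 6.31, and without library 2 it was 7.47. Col4a5 was 4.98-fold higher (log2 2.32, SE 0.25, edgeR adjusted p = 0.000179), Col18a1 2.16-fold and Col8a1 1.66-fold (edgeR adjusted p = 0.00171 and 0.00373). Col4a2 was 5.07-fold lower (log2 -2.34, SE 0.26, edgeR adjusted p = 0.000198), Col4a1 3.76-fold lower (log2 -1.91, SE 0.25, 0.000511) and Col12a1 9.25-fold lower (log2 -3.21, SE 0.39, 0.000354). Col12a1 stood at -4.16 without TS/A empty library 1 and at -2.70 without library 2, and Col4a1 stood at -1.19 when the most read transcript alone was counted. Type IV chains thus went in both directions. Col6a1 and Col6a2 were 3.48-fold and 7.23-fold higher (edgeR adjusted p = 0.0147 and 0.020). Both passed with 2 libraries per group and missed the threshold without either 4T1 empty library (adjusted p 0.0679 and 0.0940 for Col6a1, 0.0832 and 0.120 for Col6a2), and Col6a2 also without TS/A empty library 1 (0.0505). Without that library the log2 fold change of Col6a1 went from 1.80 to 0.94 and that of Col6a2 from 2.85 to 1.77, and without TS/A empty library 2 they were 2.32 and 3.44.

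Members with few reads in 1 line were given bounds or counting intervals. Col5a3 had 2 reads in 4T1 empty and 175 in TS/A empty, a CPM ratio of 79.6 with a 95% exact interval of 21.7 to 662. Col27a1 had 51 reads in 4T1 empty and 3 in TS/A empty, a ratio of 18.7 (6.05 to 93.7). With no read in TS/A empty, Col2a1 was at least 3.79-fold lower and Col15a1 at least 2.97-fold lower there, and with no read in 4T1 empty Col23a1 was at least 2.77-fold higher in TS/A, each set against 3 reads per library. The Col23a1 call was lost without any 1 of 5 libraries, and that of Col15a1 without 4T1 empty library 1. Intervals and bounds cover counting error only. Col5a1, Col7a1, Col11a2, Col16a1 and Col17a1 did not pass, with log2 fold changes of 0.57 (SE 0.27), -0.03 (SE 0.20), 1.60 (SE 0.80), 0.09 (SE 0.25) and -0.05 (SE 0.58). For 3 of these the TS/A empty library left out decided the call. Col16a1 was called lower in TS/A without library 1 (log2 -0.43, edgeR adjusted p = 0.00392) and higher without library 2 (0.45, 0.00196). Col7a1 was called lower without library 1 (log2 -0.40, edgeR adjusted p = 0.00771), and Col5a1 was called higher without library 2 (log2 0.98, edgeR adjusted p = 8.07e-06).

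In each of the 8 fits that left out 1 library, 10 of the 14 remained called: Col1a1, Col2a1, Col4a1, Col4a2, Col4a5, Col5a3, Col8a1, Col12a1, Col18a1 and Col27a1. Beside this line difference the mammary epithelial markers summed to 2217 and 2201 CPM in 4T1 empty and 183 and 215 CPM in TS/A empty, with all 10 called lower. The fibroblast and other mesenchymal markers summed to 541 and 512 against 356 and 246 CPM, with Pdgfrb called higher and Postn and Fbln2 lower in TS/A, and Lum, Thy1 and Fap at 0 in every library. The part of cell state or cell mixture in the collagen values was not tested.

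**Figure D5:**
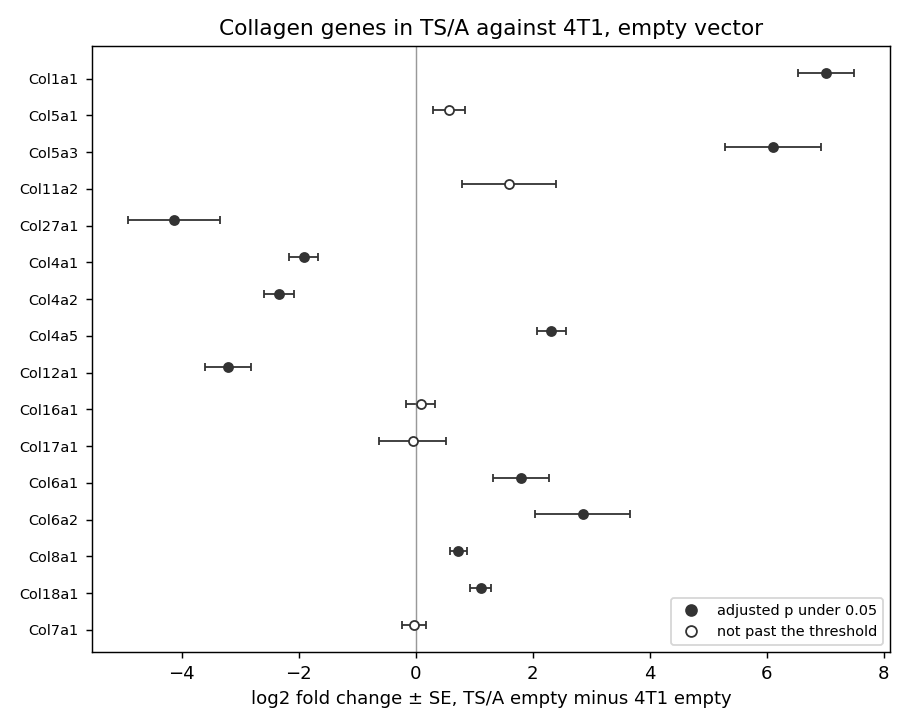
Log2 fold change ± SE of TS/A empty minus 4T1 empty for the 16 collagen genes with reads in both groups, from the fit of all 8 libraries. Filled points passed an adjusted p of 0.05, from Col27a1 at -4.13 to Col1a1 at 7.01, and Col4a1 and Col4a2 lie left of 0 where Col4a5 lies right of it.

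Collagen chains need hydroxylases, chaperones, glycosyltransferases, propeptide proteases and crosslinking enzymes before they form stable matrix, and 25 of 32 such genes were tested. In 4T1, 0 of 25 were called with all 8 libraries. In 4T1 alone 1 rose and 6 fell, where 11.5% of all genes were called higher and 11.3% lower. The riser was Bmp1, the C-propeptide protease, at 1.12-fold (edgeR adjusted p = 0.0483). Pcolce, which enhances that cleavage, fell 2.06-fold (edgeR adjusted p = 2.25e-05), from 24.0 and 24.8 CPM to 11.4 and 12.5. The prolyl 3-hydroxylase P3h1 fell 1.56-fold (edgeR adjusted p = 0.00136) and the prolyl 4-hydroxylase subunit P4ha1 1.21-fold (0.00761). In TS/A 0 of 25 were called. There the disulfide isomerase and hydroxylase subunit P4hb had log2 0.08 (SE 0.18), and the collagen chaperone Serpinh1 had log2 0.13 (SE 0.17).

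Between the lines 7 of the 25 were higher and 6 lower in TS/A, close to the shares over all genes of 23.9% higher and 23.5% lower. Those higher by the smallest p were the crosslinking enzyme Loxl2 (15.3-fold, edgeR adjusted p = 2.93e-06), Pcolce (11.6-fold, 1.91e-05) and P4ha1 (2.24-fold, 0.000215). Pcolce had 340 and 228 CPM in TS/A empty. Those lower were the crosslinking enzyme Loxl4 (3.60-fold, edgeR adjusted p = 1.59e-05), the prolyl 3-hydroxylase P3h2 (12.4-fold, 8.99e-05) and the collagen galactosyltransferase Colgalt1 (1.74-fold, 0.00116). The median log2 fold change of the 25 was -0.05, against 0.01 over all genes.

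Of 11 genes for collagen receptors and uptake, 8 were tested. In 4T1 Adgrg1 rose 35.8-fold (edgeR adjusted p = 0.00851), and in 4T1 alone the collagen-binding integrin subunit Itga2 also rose, 1.30-fold (0.000296). In TS/A 0 of 8 were called. Between the lines TS/A held more Ddr2, a discoidin-domain receptor of fibrillar collagens (2.67-fold, edgeR adjusted p = 0.000181), more Mrc2, an endocytic collagen receptor (47.0-fold, 0.000192, from at most 0.112 CPM in 4T1 empty), and more Adgrg1 (9.64-fold, 0.000435). It held less Itga2 (11.8-fold lower, 1.72e-05). Itgb1, the common beta subunit of the collagen-binding integrins, had log2 -0.04 (SE 0.11).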

How the data were processed

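Per the labels' protocols, RNA came from RNeasy Mini Kit columns and went into TruSeq RNA v2 libraries, a chemistry that keeps no strand. The deposited files hold a whole-number read count and an RPKM value for each of 65042 transcripts, per the file headers. The aligner, counter, genome build and annotation were not given in the sources used here. Deposited counts were summed per gene name, without the trailing number, over transcripts. Coordinates come from GENCODE M21 (GRCm38), which held 65023 of the transcript identifiers.

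Genes were kept by filterByExpr (minimum count 10), scaled by TMM and tested with edgeR 4.0.16 (R 4.3.3; glmQLFit and glmQLFTest) over the 4 groups; calls used Benjamini-Hochberg adjusted p under 0.05. Standard errors were taken as log2 fold change over the root of the F statistic. The deposited RPKM were summed over transcripts to compare levels between genes, with no test. The lines alone, DESeq2 1.42.0, other scalings and filters, the top transcript per gene and leaving out each library were alternatives. The pipeline was tested on simulated data. The members, the lists and the tests were chosen with earlier results of these data known. All members passing the filter were described; of each pathway list at most 3 called genes each way, by smallest p, were named, or the 2 most abundant where none was called. The transcript split of Col4a1 and the length comparison were chosen after their values were seen. The endothelial list summed to 0.592 to 1.68 CPM per library, and the immune list to 2.34 to 17.8 CPM.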

Additional observations from a re-analysis of the deposited data

How the results depend on the processing

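With 2 libraries per group, calls rest on the spread shared between libraries. For the vector in 4T1, 1 collagen gene of 19 was called (0.226% of all genes). The count became 2 of 19 with the DESeq2 Wald test (2.26%) and 2 of 37 with no filter on low counts (1.68%). It became 0 of 18 with the top transcript per gene (0.0423%). Leaving out 1 library also moved it, as given above. It became 6 in 4T1 alone, which was also 6 with library totals, and 4 to 8 there when 1 library was left out (7 without Gpr56 library 2). Of all genes, 22.8% were called in 4T1 alone and 23.5% there with library totals. That share also moved when 1 library was left out. In TS/A the count stayed 0 in every fit that kept all 4 TS/A libraries, where at most 0.231% of all genes were called. It changed only without empty library 2. The difference between the vector effects had 0 calls, 1 with DESeq2, 1 with no filter, and 0 to 5 when 1 library was left out (3 without TS/A empty library 1, 5 without library 2). For that difference 0.0668% of all genes were called, 0.551% with DESeq2 and 0.379% with no filter. The share of all genes called also rose without either TS/A empty library, more so without library 2. The higher member counts of those fits are thus not particular to collagens. Between the lines 14 of 19 were called (47.4% of all genes). The count became 8 of 11 tested with a filter of 10 CPM in 2 libraries, which tests fewer genes and calls 47.7% of them. Leaving out 1 library moved the calls of members, as given above, and the share of all genes called as well. As log2 ratios of class sums in 4T1, the anchoring fibril moved from 0.19 to 0.22 by library totals and by RPKM, and the fibrillar class from -0.32 to -0.14 by RPKM. Other classes moved too. In 4T1 empty and 4T1 Gpr56 the FACIT means were 95.7 and 77.8 CPM but 15.9 and 13.9 RPKM. The transmembrane means were 0.807 and 1.01 CPM but 0.135 and 0.186 RPKM. The causes of these moves were not tested. Single-line fits with a library left out, with library totals or with the block were added after the data were seen.

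The replicate numbers share only a number, since the labels do not say what they mark: the correlation of same-numbered deviations was -0.02 in 4T1 and 0.31 in TS/A. With the replicate block the calls were 2 for the vector in 4T1 (1.09% of all genes), or 6 in 4T1 alone (24.9%). They were 2 for the difference between the vector effects, Col4a5 and Col6a1 (0.309%), 14 between the lines (48.4%) and 0 for TS/A (0.00835%).

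No collagen gene called with all 8 libraries reversed its direction under an alternative. Of the values of uncalled genes, only some were followed over the alternatives, and 9 of those reversed, as given below. Col1a1, Col4a1, Col4a2, Col5a1, Col7a1 and Col16a1 were not followed for TS/A. Each had a negative log2 fold change there, yet stood lower in empty library 2 than in both libraries labelled Gpr56. Between the lines, Col16a1 (0.09) ran from -0.43 to 0.45 over the fits that left out 1 library and was -0.32 by top transcript, Col7a1 (-0.03) ran from -0.40 to 0.26 and was 0.0085 by library totals and 0.67 by top transcript, Col5a1 (0.57) ran from -0.012 to 0.98, and Col17a1 (-0.05) ran from -1.09 to 0.49. For the vector in 4T1, Col4a1 (-0.13) was 0.32 by top transcript. Col4a2 (0.00) was 0.028 by library totals, 0.030 by library totals in 4T1 alone, 0.00046 with the filter of 10 CPM and 0.0093 by top transcript, and ran from -0.080 to 0.066 without 1 library, with 0.028 and 0.065 in 4T1 alone without empty library 1 and Gpr56 library 2. In TS/A, Col4a5 (-0.10) ran from -0.41 to 0.32, with 0.32 and 0.057 in TS/A alone without empty library 1 and Gpr56 library 2. Col8a1 (0.02) ran from -0.10 to 0.17, with -0.084 and -0.035 in TS/A alone without empty library 2 and Gpr56 library 1. Col18a1 (0.01) ran from -0.25 to 0.34 and was -0.0070 by library totals, -0.0069 by library totals in TS/A alone and -0.23 in TS/A alone without empty library 2. All are log2 fold changes.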
